A study of Homo sapiens with 8 samples.

Results

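Media conditioned by embryonic sympathetic ganglia were compared on human neuroblastoma cells: E15.5-mSGcm, from mouse ganglia, and E8-cSGcm, from chick ganglia, where E15.5 and E8 give the embryonic day. The comparison rests on 4 of the 8 RNA-seq libraries of the series, 2 for each medium, chosen by their labels and not by any measured value, and it covers 16680 genes with enough reads to be tested. In the study, aggregates of IGR-N91, a human neuroblastoma cell line, were formed in hanging drops for 20 h by the labels (the study's text also gives a longer time). The drops held control medium that had held no tissue, E8-cSGcm, E15.5-mSGcm or E8-cDRGcm, the last conditioned by chick dorsal root ganglia. The other 4 libraries, from control medium and E8-cDRGcm, entered the model and are given as reference levels. Species and embryonic stage changed together between the sympathetic media, so that their parts in any difference cannot be told apart. All groups were the same cell line, and no genetic difference between them was stated. The study's aggregation assays used fluorescent cells, from lines made to express GFP. Whether the sequenced cells carried GFP was not stated. The ganglia behind each medium were pooled from several embryos, and although the study describes its measurements in general as made on distinct samples, it was not stated whether the libraries of a medium came from separate cultures or batches of medium. The p-values below therefore measure only the spread between these libraries, which may be technical.

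Sympathetic ganglia arise from the trunk neural crest, the lineage from which neuroblastoma develops, and they release neuropeptides, growth factors and matrix proteins as their neurons mature. Cells read such cues through receptors whose output is written by a few transcription factor families. NF-kB is one of them: its subunits are held by inhibitor proteins until cytokine or pattern receptors release them, and the genes they switch on include their own inhibitors, chemokines and adhesion molecules for leukocytes. ATF4, a factor made when amino acids are short or the endoplasmic reticulum is stressed, and SREBP, a factor that senses membrane sterol, steer amino acid and cholesterol synthesis in a similar way.

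The E15.5-mSGcm libraries held 7930765 and 8937397 counts on genes and the E8-cSGcm libraries 12286211 and 13981765, so that 3 counts, the floor used below for a gene without reads, were worth 0.343 to 0.384 CPM in the mouse medium and 0.21 to 0.241 CPM in the chick medium. CPM are counts scaled to a common library total after scaling of the library totals by the TMM method. Counts from the mitochondrial genome made up 7.03% to 7.46% of the mouse medium libraries and 4.65% to 5.24% of the chick medium libraries, and long non-coding RNAs 2.93% to 2.99% against 1.69% to 1.9%. Intervals and floors here cover counting error only. With 2 libraries a group, an exact permutation test of a single value cannot give p below 0.333. Tests therefore come from edgeR's quasi-likelihood model, fitted across all genes and all 8 libraries, with Benjamini-Hochberg adjustment.

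A gene was called where the adjusted p was under 0.05 and the fold change at least 1.5. Of the 16680 genes, 1704 were called higher in E15.5-mSGcm and 2023 lower, which is 10.2% and 12.1% of the genes tested and 22.3% together. Both libraries of the mouse medium lay above both of the chick medium for 35.2% of all genes and below them for 38.3%, so that a lack of overlap alone separates no gene from the rest. The median log2 fold change over all genes was -0.01. Of the called genes, 284 were higher by more than 2 on the log2 scale and 234 lower by more than 2. Genes called lower had a median GC content of 54.4% and genes called higher 45%, with 47.1% over all tested genes. Of the genes called higher, 313 were long non-coding RNAs, and of those called lower 107. When each library was corrected for GC content and transcript length, 1809 genes were called higher and 1636 lower, of which 1477 and 1495 had been called the same way without the correction.

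Many NF-kB genes were higher in the mouse medium. Of 19 tested subunits, inhibitors and kinases of the list, 13 (68.4%) were called higher and none lower, against 10.2% of all genes called higher, and the list's median log2 fold change was 1.20. Of the other 6, 1 was called lower without E15.5-mSGcm replicate 1 or 2 or E8-cSGcm replicate 2. NFKBIA, the inhibitor that holds NF-kB in the cytoplasm and is itself made on its activation, had 222 and 229 CPM in the E15.5-mSGcm libraries and 24.4 and 24.2 in the E8-cSGcm libraries. Its log2 fold change was 3.22 (SE 0.07, adjusted p = 8.05e-29), and the chick medium values lay far below both mouse medium values. NFKBIZ, a nuclear member of the inhibitor family, had 42.1 and 38.5 CPM against 4.89 and 4.9, a log2 fold change of 3.04 (SE 0.14, adjusted p = 7.54e-20). RELB, a subunit of the non-canonical branch, had 25.8 and 29.5 CPM against 7.62 and 6.79 (log2 fold change 1.94, SE 0.14, adjusted p = 9.02e-15). NFKB1, the precursor of a DNA-binding subunit, had 107 and 106 CPM against 28.9 and 34 (log2 fold change 1.76, adjusted p = 4.68e-20). Its relative NFKB2 had 73.8 and 92.2 CPM against 37.8 and 36.5 (1.17, adjusted p = 2.95e-14). The subunit REL showed 54.8 and 58.5 CPM against 24.7 in both chick medium libraries (1.20, adjusted p = 2e-13). In none of these genes did the libraries of the media overlap, which also held for 35.2% of all genes in the same direction.

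RELA, the most widely used activating subunit, stood apart from them. It had 59.3 and 60.5 CPM in the mouse medium and 55.1 and 57.7 in the chick medium, a log2 fold change of 0.09 (SE 0.07, adjusted p = 0.333). The kinases that release NF-kB from its inhibitors were not called either: CHUK had a log2 fold change of 0.37, IKBKB of -0.14 and their scaffold IKBKG of -0.62 (adjusted p = 0.00901, 0.3 and 0.183). The related kinase IKBKE was higher, with 19.5 and 15.4 CPM against 6.09 and 6.51 (log2 fold change 1.46, adjusted p = 1.29e-09). Enzymes that end the signal were called higher as well. CYLD, which strips activating ubiquitin chains, had 84.2 and 90.7 CPM against 38.4 and 35.3 (log2 fold change 1.25, adjusted p = 2.2e-16). TNFAIP3, a ubiquitin-editing enzyme with the same effect, had 1.41 and 3.31 CPM against 0.241 and 0, with 3 counts in all in the chick medium. Its ratio was 20.8 (95% counting interval 6.61 to 105).

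Some of these genes hold a sequence that NF-kB can read in their promoters. The decamer made of GGGA, 2 free bases and TTCC, searched on both strands in the 250 bases before the start of transcription, was found in 5 of the 11 promoters on hand for the 13 called NF-kB genes, namely those of NFKBIA, NFKBIZ, NFKB1, REL and TNFAIP3. It was found in 1.42% of the 27305 promoters of the RefSeq table and in 1.29% of those of tested genes. Among the genes called higher 42 of 1051 promoters (4%) held it, and among the genes called lower 14 of 1425 (0.982%). The nonamer GGAANTTCC, which can overlap the decamer, was found in 2.09% of promoters of genes called higher, 0.561% of those called lower and 0.851% of those of all tested genes. RELB, NFKB2, BIRC3, CCL2 and VCAM1, searched as well, gave no match to either sequence or had no promoter on hand. The decamer stretches of NFKBIA, NFKB1 and TNFRSF9, and the nonamer stretch of ICAM1, are printed as examples of promoters with a match. They are RefSeq sequence of GRCh38.p14, 5′ to 3′ on the strand of the gene, with the match in capitals. The NFKBIA stretch is chr14:35404781-35404870 on the minus strand, with the match 81 bases before the start. The NFKB1 stretch is chr4:102501270-102501358 on the plus strand. TNFRSF9 and ICAM1, whose values follow, have theirs at chr1:7940864-7940953 on the minus strand and chr19:10270894-10270982 on the plus strand. A match describes the letters only, and binding was not measured.
NFKBIA: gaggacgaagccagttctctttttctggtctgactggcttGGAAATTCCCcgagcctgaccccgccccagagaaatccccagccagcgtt
NFKB1: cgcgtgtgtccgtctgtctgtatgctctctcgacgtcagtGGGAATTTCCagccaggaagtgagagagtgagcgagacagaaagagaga
TNFRSF9: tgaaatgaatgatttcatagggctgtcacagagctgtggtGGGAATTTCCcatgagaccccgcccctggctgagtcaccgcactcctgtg
ICAM1: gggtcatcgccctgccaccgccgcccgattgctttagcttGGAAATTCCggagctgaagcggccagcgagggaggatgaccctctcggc

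Several chemokines and leukocyte adhesion molecules were far higher in the mouse medium. ICAM1, a ligand of leukocyte integrins, had 32.2 and 31.9 CPM in E15.5-mSGcm and no read in either E8-cSGcm library, at least 142-fold higher against the floor of 3 counts per library (adjusted p = 1.24e-21). VCAM1, another integrin ligand, had 7.56 and 7.65 CPM against no read, at least 33.8-fold higher (adjusted p = 1.22e-11). CCL2, which attracts monocytes, had 26.9 and 26.5 CPM against 0.0802 and 0, a single count, so that the ratio of 688 has a 95% counting interval of 123 to 27247 (adjusted p = 1.92e-20). These 3 genes were thus detected at a steady level in both libraries of the mouse medium and hardly at all in the chick medium.

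Of the 45 chemokine, cytokine and acute-phase genes listed, 32 had too few reads to be tested. Of the 13 tested, 8 were called higher and 1 lower, with a median log2 fold change of 1.52. Without E15.5-mSGcm replicate 2, 10 were tested and 5 called higher (median 1.05). Several of them, such as CCL2, CXCL10 and IL32, passed the filter on low counts only through the mouse medium, so that neither the count nor the median bears on the listed genes as a whole. Of the 5 with at least 10 counts in every library, 3 were called higher (median 0.59). CXCL12, a chemokine that guides migrating neural crest and immune cells, had 14.2 and 14.1 CPM against 0.802 and 0.42, a log2 fold change of 4.54 (SE 0.31, adjusted p = 4.9e-15). CX3CL1, a membrane-bound chemokine of neurons, had 62.3 and 68.1 CPM against 22.2 and 23.7 (2.84-fold higher, adjusted p = 6.31e-17). The macrophage growth factor CSF1 had 19.7 and 21.6 CPM against 8.1 and 6.44 (1.52, adjusted p = 7.26e-11). CXCL10, an interferon-induced chemokine, had 1.15 and 2.06 CPM against no read, at least 7.13-fold higher (adjusted p = 4.54e-06), a call that DESeq2 did not make (adjusted p = 0.294). IL32 was likewise seen at 1.41 and 2.06 CPM against no read, at least 7.7-fold higher (adjusted p = 2.13e-06). The cytokine LIF was called too, at 1.02 and 1.37 CPM against 0.321 and 0.14 (log2 fold change 2.37, adjusted p = 0.00301).

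Members of the TNF receptor family moved in both directions, 5 of 23 tested higher and 6 lower, with a median of 0.06. TNFRSF9, a costimulatory receptor known from T cells, had 57.5 and 65.3 CPM against 2.81 and 2.1, a log2 fold change of 4.66 (SE 0.15, adjusted p = 3.14e-24). BIRC3, a ubiquitin ligase that protects from death receptor signals, had 30.5 and 28 CPM against 2.33 and 1.96 (3.77, SE 0.18, adjusted p = 2.01e-19). CFLAR, which blocks the first caspase of that pathway, had 34.5 and 32.7 CPM against 16.7 and 19 (0.91, adjusted p = 3.66e-09), and the decoy receptor TNFRSF10D 6.28 and 8.8 against 2.33 and 2.31 (1.71, adjusted p = 3.42e-07). In the other direction, the death receptor TNFRSF21 had 20.5 and 18 CPM against 34 and 33.1, which fell by 0.80 on the log2 scale (adjusted p = 2.76e-08).

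Interferon-stimulated genes were called more often than genes at large, but the median of the list lay near 0. Of 25 tested, 7 were called higher and 2 lower (36% called, against 22.3% of all genes), and their median was 0.06. PARP14 (129 and 139 CPM against 72.1 and 69.5, log2 fold change 0.92, adjusted p = 4.01e-15) and DTX3L (38.3 and 39.9 against 24.1 and 22.6, 0.74, adjusted p = 2.94e-08), partners in ADP-ribosylation, were higher. IFIT2, an antiviral RNA-binding protein, had 3.46 and 3.88 CPM against 0.401 and 0.56 (2.90, adjusted p = 3.38e-07), and the factor IRF1 16 and 12.3 against 5.53 and 6.02 (1.28, adjusted p = 2.07e-07). ISG15, a ubiquitin-like protein induced by interferon, had 3.2 and 3.77 CPM against 4.65 and 3.92 (-0.29, adjusted p = 0.362) and was not called. None of the 8 tested genes of MHC class I presentation was called in either direction.

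**Figure D1:**
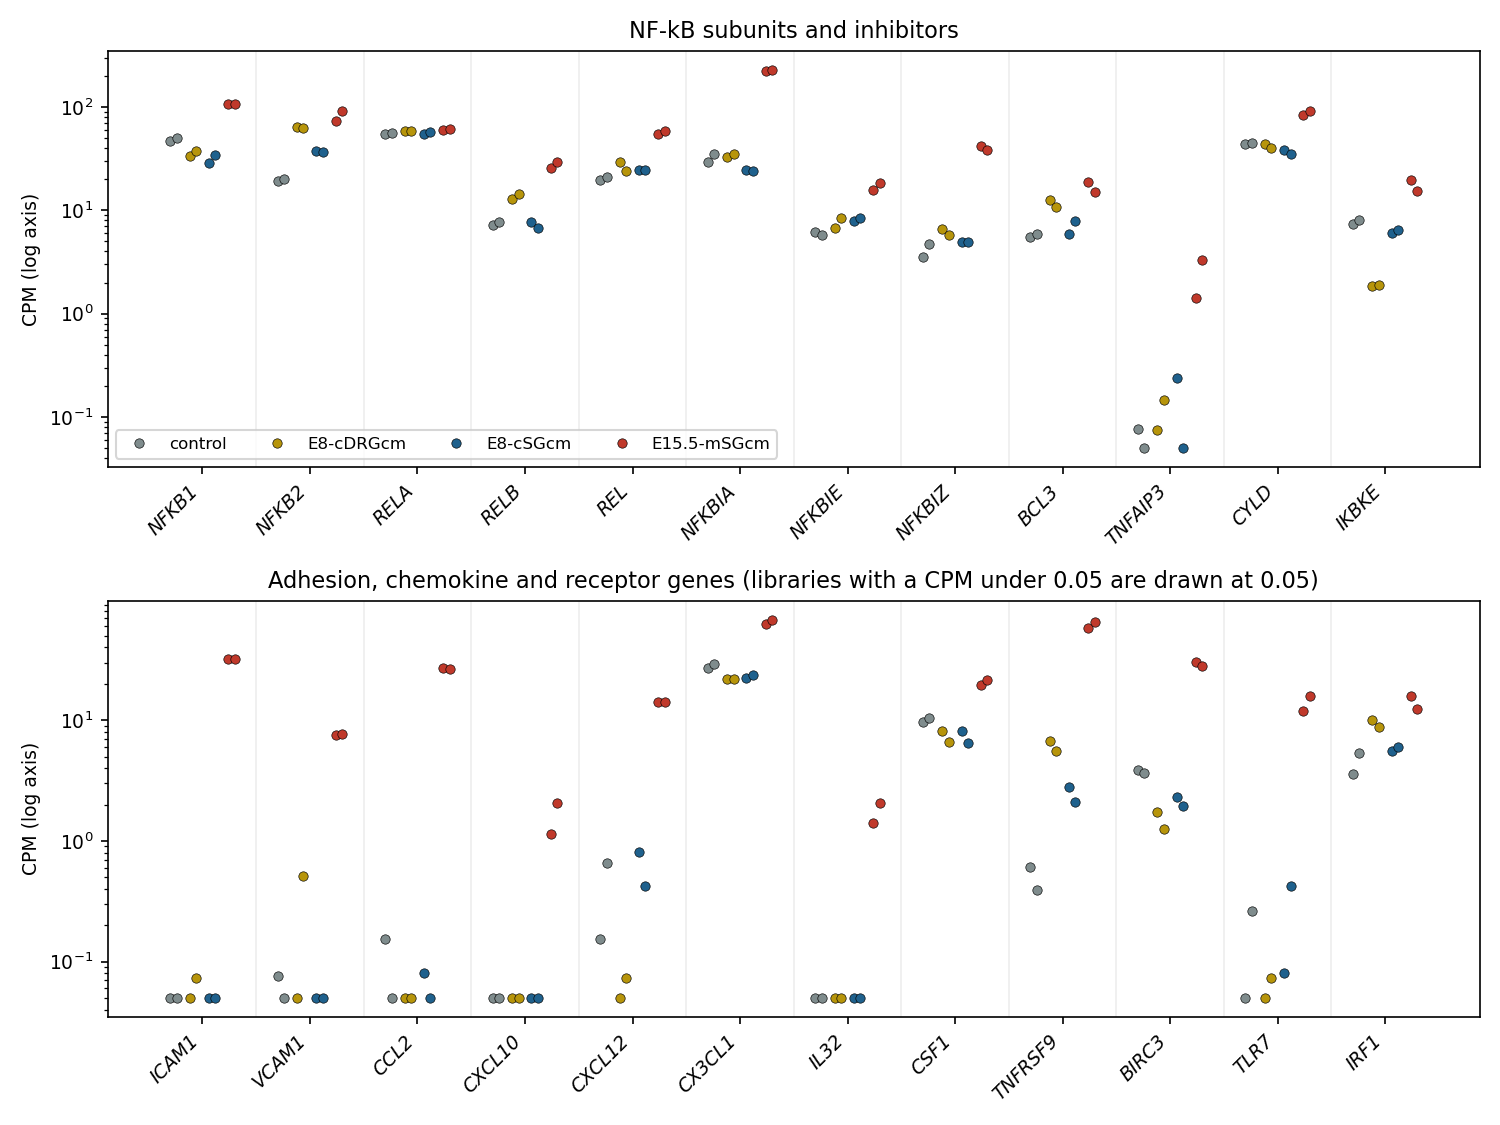
CPM (vertical log axis) of NF-kB genes (upper panel) and of adhesion, chemokine and receptor genes (lower panel), with 1 point for each of the 8 libraries, coloured by medium, and libraries under 0.05 CPM drawn at 0.05 in both panels. NFKBIA lies at 222 and 229 CPM in E15.5-mSGcm and at 24.4 and 24.2 in E8-cSGcm, while RELA differs little between the media.

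Control medium gave a reference for these levels. The median log2 fold change of the NF-kB list against control was 1.17 in E15.5-mSGcm and 0.20 in E8-cSGcm. That of the chemokine list, under the limit from the filter given above, was 1.23 and -0.19. For NFKBIA the values were 2.81 and -0.41, and for BIRC3 2.94 and -0.82. TNFRSF9 was above control in both media, by 6.93 in the mouse medium and 2.27 in the chick medium on the log2 scale. These comparisons share the control libraries and are given side by side for level only.

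The largest group on the lower side was the replication-dependent histones, the core and linker histones made in S phase from messages without a poly(A) tail. Of 53 tested, 48 were called lower in E15.5-mSGcm and 1 higher, which is 92.5% called, against 22.3% of all genes, and the median log2 fold change was -2.31. Their summed level was 1627 and 1634 CPM in the mouse medium and 6725 and 7694 CPM in the chick medium. The other groups lay near the chick medium, at 7311 and 7381 in control medium and 6520.0 and 7677 in E8-cDRGcm. The linker histone H1-5 had 81.9 and 68.3 CPM against 561 and 681 and fell by 3.05 on the log2 scale (SE 0.16, adjusted p = 3.56e-05). H4C9 had 9.22 and 9.6 CPM against 102 and 115 (log2 fold change -3.52, SE 0.10, adjusted p = 4.65e-25), and H2BC11 10.9 and 15.8 against 123 and 142 (-3.30, adjusted p = 1.58e-05). H3C7 had 10.9 and 12.5 CPM against 73.8 and 80.5 (-2.72, adjusted p = 3.84e-22), and H2AC11 28.8 and 27.4 against 143 and 160.0 (-2.43, adjusted p = 1.2e-22). One member was called the other way, H3C6, with 5.12 and 5.94 CPM against 2.57 and 1.54 (1.45, adjusted p = 2.72e-05), which is named because its values were seen. Near-identical copies of histone genes can share reads, so that the split among single members is uncertain. Corrected for GC content and length, the median was -2.10 and 47 genes were called lower.

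Histone variants made outside S phase were less uniform. Of 10 tested, 4 were called lower and none higher. Among them, H1-10 had 205 and 203 CPM against 443 and 460.4 (log2 fold change -1.15), H2AX 62.1 and 62.6 against 125 and 140.0 (-1.09) and CENPA, the centromere histone, 5.51 and 5.6 against 11.5 and 10.6 (-0.99). H3-3B, a replacement histone, had 350.1 and 340.1 CPM against 325 and 349 and was not called (0.03, adjusted p = 0.59). The factors that trim histone messages at their stem-loop were mostly not called, 2 of 18 lower and a median of 0.00. SLBP, which binds that stem-loop, was one of them, with 31.5 and 32.7 CPM against 47.1 and 51.4 (-0.62, adjusted p = 2.02e-07).

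Genes of DNA replication and mitosis were lower by smaller amounts. Of 46 replication genes, 19 were called lower and 1 higher, with a median of -0.50 (-0.36 after the GC correction), and of 45 mitosis genes 18 were called lower and none higher, with a median of -0.44. CHAF1B, a chaperone that places histones on new DNA, had 11.1 and 8.8 CPM against 27.1 and 26.5 and fell by 1.43 on the log2 scale (adjusted p = 5.61e-12). CDC45, part of the replicative helicase, had 22.5 and 18.5 CPM against 38.7 and 47.5 (log2 fold change -1.08, adjusted p = 1.83e-10), and RRM2, which makes deoxynucleotides, 28.1 and 31 against 57.6 and 60.6 (adjusted p = 2.29e-12). In mitosis, CDCA2, a phosphatase-binding protein of chromosomes, had 47.3 and 50.6 CPM against 153 and 154 (-1.65, adjusted p = 4.69e-22), and TPX2, which organises the spindle, 176 and 186 against 350.1 and 356 (-0.96, adjusted p = 4.4e-18). The mitotic kinase CDK1 had 68.5 and 68.1 CPM against 119 and 125 (-0.83, adjusted p = 1.14e-13). PCNA, the replication clamp, had 164 and 158 CPM against 168 and 182 and was not called (-0.12, adjusted p = 0.0722). Fewer cells of one phase and less RNA per cell cannot be told apart in such bulk libraries.

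G1 regulators were split, 4 of 14 higher and 4 lower (2 and 2 after the GC correction). CCND1, a cyclin that drives entry into the cycle, had 982 and 919 CPM against 564 and 573 (log2 fold change 0.74, adjusted p = 1.37e-15). Its kinase CDK6 (583 and 612 against 396 and 364) and the inhibitor CDKN1B (106 and 111 against 68.9 and 73) were called higher at 0.65 and 0.61, below the fold criterion once corrected for GC content (0.46 and 0.56). CDK6 also stood below it without E8-cSGcm replicate 2 (0.58), and CDKN1B without E15.5-mSGcm replicate 2 (0.57) or E8-cSGcm replicate 1 (0.56). CDKN3, a phosphatase acting on cyclin-dependent kinases, had 32.4 and 24.6 CPM against 66.1 and 68.3 and fell by 1.25 on the log2 scale (adjusted p = 4.16e-12).

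Amino acid synthesis and transport differed the other way, being higher in the chick medium. Of 29 tested genes, 18 were called lower in E15.5-mSGcm and 2 higher, with a median log2 fold change of -0.79 (15, 3 and -0.72 after the GC correction). SHMT2, which passes one-carbon units from serine in mitochondria, had 164 and 172 CPM against 465 and 499 and fell by 1.52 on the log2 scale (SE 0.05, adjusted p = 3.95e-23). PHGDH and PSAT1, the first steps of serine synthesis, had 113 and 127 CPM against 255 and 266 (log2 fold change -1.12, adjusted p = 7.82e-18) and 114 and 108 against 233 and 247 (-1.11, adjusted p = 2.86e-18). SLC7A5, a leucine carrier, had 54.7 and 56.7 CPM against 181 and 176 (-1.68, adjusted p = 3.9e-22), and the glutamine carrier SLC1A5 225 and 222 against 469 and 452 (-1.04, adjusted p = 2.9e-19). ASNS, which makes asparagine, had 2.05 and 2.74 CPM against 10.8 and 12.2 (-2.25, SE 0.22, adjusted p = 5.07e-11). PCK2, the mitochondrial enzyme that makes phosphoenolpyruvate, had 30.7 and 30 CPM against 222 and 232 (-2.90, SE 0.10, adjusted p = 4.49e-14); it is named because its values were seen. The sodium-coupled glutamine carriers SLC38A1 and SLC38A2 were the 2 exceptions, at 604 and 605 CPM against 373 and 345 (0.75) and 606 and 613 against 320.0 and 305 (0.96).

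Against control medium, the median of the amino acid list was -0.19 in the mouse medium, 0.60 in the chick medium and 0.89 in E8-cDRGcm. SHMT2 lay 1.40 above control in E8-cSGcm on the log2 scale and at -0.12 in E15.5-mSGcm, and PHGDH at 1.19 and 0.07. SLC7A5 and SLC1A5 were below control in the mouse medium, at -1.07 and -0.67, and above it in the chick medium, at 0.61 and 0.37.

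The integrated stress response, the ATF4 pathway that controls many of these genes, gave 11 of 26 called lower and 1 higher, with a median of -0.41. TRIB3, an inhibitory partner of ATF4, had 18.7 and 21.7 CPM against 56.4 and 71.2 (log2 fold change -1.66, SE 0.12, adjusted p = 7.5e-11), and the factor ATF5 31.5 and 36.3 against 91.5 and 103 (-1.52, adjusted p = 2.04e-18). CHAC1, which breaks down glutathione, had 7.17 and 7.77 CPM against 18.8 and 22.2 (-1.46, adjusted p = 3.4e-10). The translation brake EIF4EBP1 had 201 and 200.3 CPM against 396 and 412 (-1.01, adjusted p = 1.46e-18). ATF4 itself had 273 and 292 CPM against 299.8 and 332 and was not called (-0.16, adjusted p = 0.0216). EIF2AK3, the kinase that starts the response at the endoplasmic reticulum, was the member called higher, at 73.8 and 80.3 CPM against 34.6 and 31.2 (1.23, adjusted p = 1.72e-15). Cytosolic aminoacyl-tRNA synthetases had 6 of 22 lower and none higher (median -0.38). Their share called, 27.3%, lay near the 22.3% of all genes.

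The core of the amino acid response element, TGATGNAA, was found on either strand in 2 of 12 promoters on hand for the amino acid genes called lower (ASNS and MTHFD1L) and in 2 of 9 for the stress response genes called lower (CHAC1 and FGF21). It was found in 1.38% of promoters of all tested genes and in 1.33% of those of genes called lower, so that it did not mark that side of the comparison at large. The stretches of ASNS, at chr7:97872429-97872516 on the minus strand, and CHAC1, at chr15:40953222-40953309 on the plus strand, are shown as examples of promoters with a match. They are again from RefSeq on GRCh38.p14 with the match in capitals.
ASNS: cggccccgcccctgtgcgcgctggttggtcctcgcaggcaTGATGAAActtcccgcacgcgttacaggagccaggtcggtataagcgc
CHAC1: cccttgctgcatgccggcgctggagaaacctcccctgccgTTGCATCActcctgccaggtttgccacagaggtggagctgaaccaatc

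Sterol and fatty acid synthesis was higher in the mouse medium by modest amounts. Of 35 tested genes, 31 lay above 0, 14 were called higher and 1 lower, with a median log2 fold change of 0.56. After the GC correction 21 were called higher, with a median of 0.64. HMGCS1, the entry to the mevalonate pathway, had 359 and 334 CPM against 174 and 171 (log2 fold change 1.00, SE 0.06, adjusted p = 1.99e-17). IDI1, a later step, had 303 and 286 CPM against 126 and 135 (1.17, adjusted p = 2.7e-19), and INSIG1, the brake on SREBP, 74.8 and 80 against 37.8 and 37.5 (1.04, adjusted p = 1.13e-13). The fatty acid desaturases FADS1 and FADS2 had 395 and 386 CPM against 234 and 236 (0.74) and 425 and 421 against 244 and 253 (0.77). SREBF2, at a log2 fold change of 0.56, and FASN, at 0.41, stood under the fold criterion. ABCG1, the cholesterol exporter, was the member called lower. Against control medium the list's median was 0.27 in the mouse medium and -0.15 in the chick medium. The sterol element TCACNCCAC was found in none of 11 promoters on hand for the genes called higher and in 0.749% of those of tested genes.

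RNA of the mitochondrial genome was higher in the mouse medium, while the nuclear genes of the same complexes were not. Of the 13 mitochondrially encoded subunits, 9 were called higher and none lower (median 1.43), and their summed level was 33747 and 30809 CPM in the mouse medium, 18773 and 15127 in the chick medium and 17908 and 23408 in control medium. MT-CYB, a subunit of complex III, had 2040.4 and 1872 CPM against 428 and 372 (log2 fold change 2.29, SE 0.19, adjusted p = 0.000575), and MT-ND2, of complex I, 1069 and 939.5 against 314 and 274 (1.77, adjusted p = 0.00227). MT-CO1, of complex IV, had 8115 and 7491 CPM against 5104 and 4223 (0.74, SE 0.20, adjusted p = 0.0397). Against control medium the median was 0.69 in the mouse medium and -0.80 in the chick medium. Of 74 nuclear subunits, none was called higher and 2 lower (median -0.11), and of 80 cytosolic ribosomal proteins none and 3 (median -0.31).

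Some nuclear long non-coding RNAs and metallothioneins were also higher. MALAT1, a nuclear speckle RNA, had 18491 and 19130.1 CPM against 8594 and 7247 (log2 fold change 1.25, SE 0.13, adjusted p = 0.0006), and NEAT1, the scaffold of paraspeckles, 670.0 and 664 against 299 and 214 (1.38, SE 0.21, adjusted p = 0.00556). Of the 11 RNAs listed and tested, 4 were called higher and none lower, with 6 above 0 and a median of 0.30 (0.14 after the GC correction). Metal-binding metallothioneins and zinc carriers gave 5 of 8 higher (median 1.10). Members such as MT1F passed the filter on low counts only through the mouse medium, and of the 4 with at least 10 counts in every library 2 were called (median 0.48). MT2A had 7.43 and 5.83 CPM against 3.21 and 3.36 (1.00, adjusted p = 0.000571), MT1F 1.28 and 1.37 against no read, at least 5.9-fold higher, and SLC30A1, which exports zinc, 66.7 and 72.7 against 37.1 and 37.4 (0.91, adjusted p = 4.15e-12). MT1X was called as well, but not with DESeq2, nor without E15.5-mSGcm replicate 2 (0.89) or E8-cSGcm replicate 2 (0.63). Both groups were higher in the medium with the larger shares of mitochondrial and long non-coding counts given above. With all libraries thinned to 7930765 counts, 5 of 11 long non-coding RNAs were called higher (median 0.34). So were 3 of 6 metallothioneins and zinc carriers (median 0.98). The part of RNA quality in them, or of depth beyond this thinning, was not tested.

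**Figure D2:**
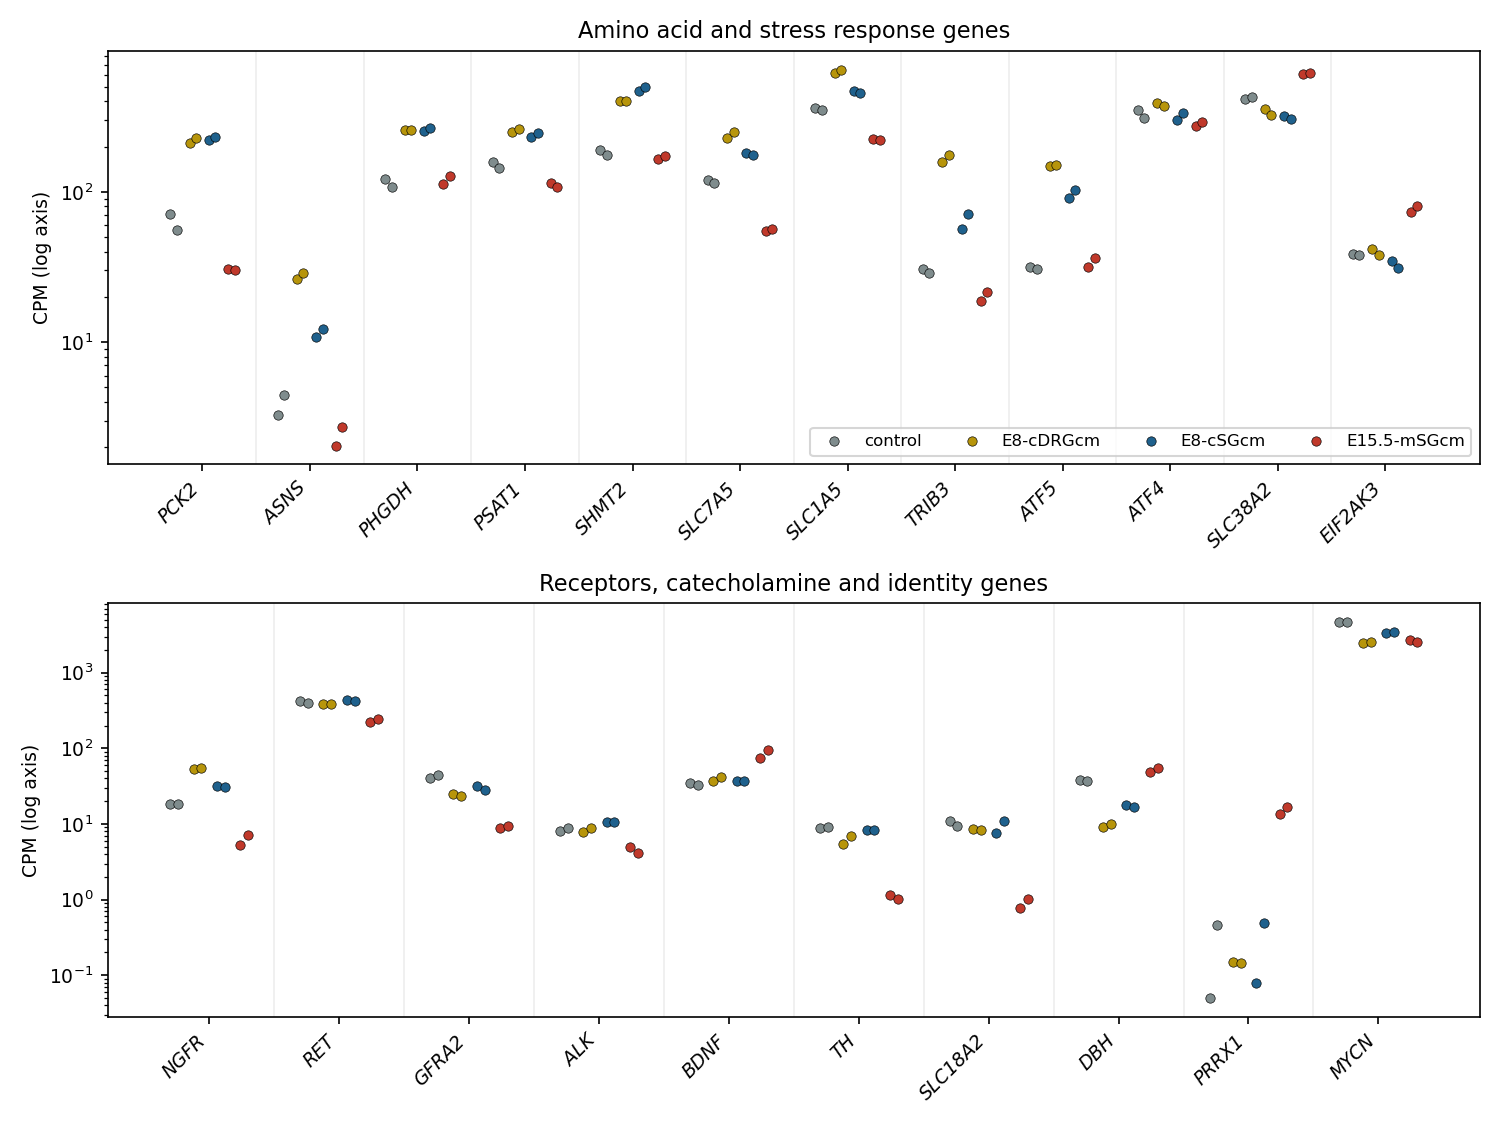
CPM (vertical log axis) of amino acid and stress response genes (upper panel) and of receptor, catecholamine and identity genes (lower panel), with 1 point for each of the 8 libraries, coloured by medium, and libraries under 0.05 CPM drawn at 0.05. SHMT2 lies at 164 and 172 CPM in E15.5-mSGcm and 465 and 499 in E8-cSGcm, and DBH and TH differ in opposite directions.

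Receptors for neurotrophic factors were among the genes with the most members called, 5 of 21 higher and 8 lower (61.9%, median -0.28, and 0.00 after the GC correction). NGFR, the receptor shared by all neurotrophins, had 5.25 and 7.08 CPM against 31.4 and 30.4 (log2 fold change -2.31, SE 0.13, adjusted p = 5.63e-17). RET, the signalling receptor of the GDNF family, had 222 and 242 CPM against 433 and 427 (-0.89, adjusted p = 7.21e-17), and its co-receptor GFRA2 8.97 and 9.37 against 31.4 and 28.1 (-1.69, adjusted p = 5.06e-14). ALK, a kinase mutated in some neuroblastomas, had 5 and 4.11 CPM against 10.7 and 10.6 (-1.23, adjusted p = 1.06e-06). The ligand BDNF and the adaptor SHC3 were higher, BDNF at 73.5 and 95.8 CPM against 37.5 and 36.7 (1.20, SE 0.09, adjusted p = 3.5e-11) and SHC3 at 148 and 161 against 72.1 and 70.8 (1.11, adjusted p = 1.76e-17). NTRK2, the receptor of BDNF, was not called (-0.28, adjusted p = 0.0197).

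Genes of retinoic acid transport and response had 9 of 15 called lower and 3 higher (median -0.86, and -0.70 after the GC correction). CRABP2, which carries retinoic acid in the cell, had 307 and 294 CPM against 526 and 577 (log2 fold change -0.88, adjusted p = 1.33e-16). STRA6, the retinol importer, had 53.3 and 47.2 CPM against 109 and 110.5 (-1.13, adjusted p = 3.47e-16). RARB, a receptor that is itself a classical retinoic acid target, was called higher, at 51.6 and 57.3 CPM against 28.8 and 32 (0.84, SE 0.09, adjusted p = 4.43e-10). Members that import or carry retinoids and this receptor thus differed in opposite directions.

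Notch genes showed 4 of 16 lower and 2 higher. NOTCH3 had 30.4 and 26 CPM against 84.7 and 80 (log2 fold change -1.55, adjusted p = 4.37e-18), its ligand JAG2 33.9 and 33.2 against 71 and 70.3 (-1.07, adjusted p = 6.76e-14), and the target HEY1 10.1 and 10.5 against 23.3 and 23.4 (-1.17, adjusted p = 6.16e-10). MAML2, a Notch coactivator, had 75.6 and 85.8 CPM against 49.4 and 38.6 (0.88, adjusted p = 1.87e-08). The list's median turned from -0.31 to 0.05 with the GC correction, so no direction is given for the list. Among gp130 receptors and STAT3 regulators, 5 of 17 were lower and 2 higher. LIFR, the receptor of LIF, had 449 and 485 CPM against 231 and 211 (1.08, adjusted p = 8.05e-19) and BCL6, a repressor, 38 and 48.1 against 15.6 and 13.2 (1.59, adjusted p = 2.16e-14), while the feedback gene CISH had 2.95 and 2.4 against 7.54 and 7.91 (-1.54, adjusted p = 7.19e-07) and SOCS3 0.769 and 0.914 against 2.49 and 2.03 (-1.40, adjusted p = 0.00547). STAT3 was not called (0.08, adjusted p = 0.304).

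Growth factor output was mixed. Of 19 ERK feedback and output genes, 4 were higher and 4 lower (2 lower after the GC correction or without E15.5-mSGcm replicate 1). The feedback inhibitors SPRY4 and SPRY2 had 259 and 279 CPM against 128 and 131 (log2 fold change 1.06, adjusted p = 1.3e-18) and 82.2 and 84 against 47.9 and 50 (0.76, adjusted p = 1.07e-11), and were below control medium in the chick medium by their log2 fold changes of -0.95 and -1.09. The BMP and TGF-beta response list had 5 of 31 higher and 6 lower. LTBP1, which tethers latent TGF-beta to matrix, had 219.8 and 239.9 CPM against 84.4 and 83.3 (1.46, adjusted p = 3.25e-21), GDF11, a ligand of the family, 226 and 239.6 against 113 and 107 (1.08, adjusted p = 1.77e-18), and the decoy receptor BAMBI 10.1 and 8.8 against 20.8 and 22 (-1.18, adjusted p = 2.09e-09). In the YAP/TAZ-TEAD list 2 of 19 were higher and 5 lower. The coactivator WWTR1 (TAZ) had 8.71 and 8.23 CPM against 27.2 and 20.4 (-1.48, adjusted p = 1.06e-10), its partner TEAD4 4.48 and 3.77 against 7.7 and 12.5 (-1.31, adjusted p = 4.16e-05), and the target CCN1 0.384 and 0.457 against 2.89 and 1.75 (-2.41, adjusted p = 0.000118). VGLL4, which competes with YAP for TEAD, had 197 and 203 CPM against 79.8 and 85.1 (1.28, adjusted p = 7.54e-20).

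Circadian clock genes had 5 of 19 higher and 2 lower. NPAS2, a paralogue of CLOCK, had 20.1 and 18.5 CPM against 3.93 and 3.36 (log2 fold change 2.41, SE 0.19, adjusted p = 1.6e-13), and the repressor BHLHE40 39.5 and 44.1 against 17.2 and 16.7 (1.30, adjusted p = 5.02e-13). NFIL3 and HLF, factors of the output loop, were lower, at 9.1 and 11.5 CPM against 19.4 and 19.7 (-0.91) and 7.81 and 8.11 against 14 and 12.1 (-0.71).

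Transcription factors of noradrenergic identity differed little between the media, unlike some catecholamine genes given below. Neuroblastoma cells can take a noradrenergic state, kept by factors such as HAND2 and GATA3, or a mesenchymal one, and the study uses 2 lists of factors for them, the restricted sets. None of the 11 noradrenergic factors was called between the media, and their median log2 fold change was 0.02. GATA3 had 116 and 108 CPM against 119.5 and 116 (-0.08, adjusted p = 0.328), and HAND2 527 and 516 against 671 and 738 (-0.44, adjusted p = 3.85e-09), each under the fold criterion. Against control medium the set's median was -0.48 in the mouse medium and -0.46 in the chick medium. MYCN, the amplified oncogene of many neuroblastomas, had 2704 and 2573 CPM against 3308 and 3496 (-0.37, not called). In the extended noradrenergic set, 47 of 350 were called higher and 49 lower (median -0.04), and 45 and 35 after the GC correction. Together 27.4% of that set were called, against 22.3% of all genes.

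Of 15 tested factors of the restricted mesenchymal set, 4 were called higher and 1 lower (median 0.34). PRRX1, a homeobox factor of mesenchyme, had 13.6 and 16.6 CPM against 0.0802 and 0.49, a log2 fold change of 5.61 (SE 0.38, adjusted p = 8.95e-14). MAML2 and IRF1, given above, and BHLHE41 (2.56 and 1.71 CPM against 0.882 and 0.63, 1.49, adjusted p = 0.0057, not called by DESeq2) were the others higher. BHLHE41 was not called without E15.5-mSGcm replicate 1 (1.18) or E8-cSGcm replicate 2 (1.25). IRF3 was the member called lower, at 12.8 and 17 CPM against 23.7 and 23.9 (-0.67), and lost the call with the GC correction or without E15.5-mSGcm replicate 1 (-0.49). JUN had 141 and 154 CPM against 126 and 125 (0.23) and was not called. In the extended mesenchymal set, 53 of 438 were called higher and 82 lower (30.8% called, against 22.3% of all genes). Its median was -0.01, so that the set as a whole did not lie on one side. Its members ran from FIBIN, a secreted protein, at 33.1 and 35.2 CPM against 3.93 and 2.59 (3.40, adjusted p = 2.9e-19), to NES, the intermediate filament nestin of neural progenitors, at 346 and 346 against 755 and 742 (-1.11, adjusted p = 2.04e-20).

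Epithelial to mesenchymal markers were divided too, 4 of 17 higher and 5 lower (median -0.36, and -0.07 after the GC correction). SOX9, a neural crest factor, had 82.5 and 88.5 CPM against 34.6 and 33.1 (log2 fold change 1.34, adjusted p = 2.88e-16) and S100A4, a motility protein, 86 and 92 against 21.8 and 25.1 (1.92, adjusted p = 9.61e-20). The filament protein VIM had 496 and 508 CPM against 779 and 794 (-0.65, adjusted p = 7.83e-14), and the hyaluronan receptor CD44 103 and 94.2 against 172 and 173 (-0.81, adjusted p = 3.2e-14). SNAI2 and ZEB2, classical inducers of the transition, were not called (0.23 and -0.02).

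The catecholamine pathway differed in single steps. TH, the rate-limiting enzyme that makes DOPA, had 1.15 and 1.03 CPM against 8.26 and 8.4, and fell by 2.93 on the log2 scale (SE 0.28, adjusted p = 4.82e-11). SLC18A2, which loads catecholamines into vesicles, had 0.769 and 1.03 CPM against 7.7 and 10.8 (log2 fold change -3.35, SE 0.30, adjusted p = 8.88e-12). DBH, which turns dopamine into noradrenaline, was higher, at 48.4 and 55.2 CPM against 17.7 and 16.9 (1.58, SE 0.10, adjusted p = 2.25e-16). Against control medium, TH stood at -3.03 in the mouse medium and -0.11 in the chick medium, and DBH at 0.47 and -1.11. The decarboxylase DDC and the noradrenaline transporter SLC6A2 were not called (0.34 and -0.08). Among granule proteins and neuropeptides, 3 of 16 were higher and 3 lower (3 and 1 after the GC correction). Neurotensin (NTS) had 12.4 and 12.6 CPM against 4.49 and 5.46 (1.32, adjusted p = 2.08e-07), the processing enzyme CPE 569.8 and 579 against 341 and 326 (0.78, adjusted p = 1.96e-16), and PCSK1, a convertase, 7.05 and 7.77 against 21.6 and 22.8 (-1.58, adjusted p = 9.53e-12). VGF, VIP and SST were called as well and lost the call with the GC correction.

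Ion channels gave 8 of 33 higher and 7 lower. KCNK3, a background potassium channel, had 73.5 and 89.1 CPM against 14.7 and 14.5 (log2 fold change 2.48, SE 0.10, adjusted p = 9.46e-22), and the calcium channel subunit CACNA2D1 538 and 599 against 276 and 278 (1.04, adjusted p = 5.45e-19). KCNQ3, a channel of the M current that restrains sympathetic firing, was lower, at 19.9 and 22.3 CPM against 75.7 and 71.7 (-1.80, adjusted p = 1.72e-17).

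Guidance, adhesion and matrix genes were called more often than genes at large, with calls in both directions. The lists below had from 39.3% (cadherins) to 51.1% (collagens, laminins and matrix glycoproteins) of tested members called. Of all genes 22.3% were called, 10.2% higher and 12.1% lower. In axon guidance, 5 of 56 were higher and 20 lower (median -0.41, and 6, 16 and -0.12 after the GC correction). SEMA3A, a secreted repellent of sympathetic neurites, had 226 and 237 CPM against 74.6 and 72.5 (log2 fold change 1.65, SE 0.06, adjusted p = 3.95e-23), while SEMA3F, its relative, had 53.4 and 60.5 against 138 and 143 (-1.30, adjusted p = 1.13e-18) and SLIT3, another repellent, 86.7 and 107 against 216 and 209 (-1.13, adjusted p = 5.2e-16). The receptor EPHA7 was higher (219 and 223 CPM against 113 and 111, 0.98) and the semaphorin receptor PLXNB2 lower (80.5 and 86.6 against 199.6 and 192, -1.23). Of 37 immunoglobulin-family adhesion molecules, ICAM1 and VCAM1 included, 6 were higher and 12 lower (5 and 9 with the GC correction, median -0.33 and then -0.13). Of the 33 with at least 10 counts in every library, which leaves out ICAM1 and VCAM1, 4 were higher and 10 lower. JAM2 had 136 and 134 CPM against 54.8 and 55 (1.30, adjusted p = 4.43e-19), CADM1 487 and 506 against 271 and 268 (0.88, adjusted p = 1.07e-17), and NECTIN2 21.5 and 23 against 49.1 and 48.2 (-1.13, adjusted p = 8.7e-13). Neuronal L1CAM was called lower (272 and 271 against 453 and 437, -0.71) and lost the call with the GC correction (-0.46).

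Integrin chains differed in both directions, 4 of 18 higher and 4 lower. With DESeq2 2 were higher and 4 lower, as among the 13 with at least 10 counts in every library. ITGA1, a collagen receptor chain, had 545 and 569 CPM against 286 and 276 (log2 fold change 0.99, adjusted p = 7.34e-19), while the fibronectin receptor chain ITGA5 had 39.8 and 38.3 against 76.9 and 83.4 (-1.04, adjusted p = 2.27e-14) and the laminin receptor chains ITGA3 and ITGA6 6.28 and 7.65 against 29.5 and 21.2 (-1.85, adjusted p = 2.35e-11) and 1.41 and 1.71 against 7.7 and 5.6 (-2.06, adjusted p = 1.03e-07). Their common partner ITGB1 was not called (-0.16). Cadherins and protocadherins had 4 of 28 higher and 7 lower (2 and 7 after the GC correction, and 4 lower without E8-cSGcm replicate 1), from PCDH8, at 33.1 and 45 CPM against 5.85 and 5.18 (2.83, adjusted p = 3.3e-16), to PCDH1, at 8.71 and 8.8 against 36.5 and 35.5 (-2.04, adjusted p = 6.93e-17). CDH2, the main neural cadherin, was not called (0.26).

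Among collagens, laminins and matrix glycoproteins 10 of 45 were higher and 13 lower (12 and 12 after the GC correction, and 6 higher with DESeq2 or without either E15.5-mSGcm library). TNC, a matrix glycoprotein of migrating and inflamed tissue, had 149 and 169 CPM against 22.1 and 17.8 (log2 fold change 3.00, SE 0.09, adjusted p = 4.02e-24). The basement membrane genes NID1 and HSPG2 were lower, at 22.3 and 24.4 CPM against 84.5 and 80.6 (-1.82, adjusted p = 5.31e-20) and 13.5 and 15.9 against 48.4 and 39.8 (-1.58, adjusted p = 1.83e-14). The 2 chains of type I collagen went in opposite directions: COL1A1 had 31.9 and 28.4 CPM against 156 and 135 (-2.27, SE 0.09, adjusted p = 1.04e-18), and COL1A2 10.8 and 14.3 against 4.73 and 4.06 (1.52, SE 0.19, adjusted p = 2.88e-08). Metalloproteases had 5 of 33 higher and 9 lower (4 and 6 after the GC correction). Without E8-cSGcm replicate 2, 3 were higher and the median went from -0.13 to -0.29. MMP16, a membrane-bound protease, had 501 and 544 CPM against 256 and 241 (1.07, adjusted p = 6.15e-19), and SERPINE2, a protease inhibitor, 5.12 and 4.91 against 17.3 and 19.1 (-1.86, adjusted p = 1.25e-12).

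OLFM1 is a secreted olfactomedin glycoprotein at the centre of the study. Its own transcript in the tumour cells was not called, with 82.8 and 99.7 CPM against 81 and 82.5 (log2 fold change 0.16, adjusted p = 0.0512). Of 24 tested genes of the OLFM-related set, which was compiled from the literature, 5 were called higher and 6 lower (median 0.20). That is 45.8% called, against 22.3% of all genes. The median depended on single libraries, from 0.02 without E15.5-mSGcm replicate 2 to 0.32 without E15.5-mSGcm replicate 1. RTN4R, the Nogo receptor, which binds olfactomedins, had 2.56 and 2.63 CPM against 17 and 19.3 (6.98-fold lower, adjusted p = 3.14e-15), and OLFM2 0.897 and 0.343 against 3.69 and 3.22 (-2.49, adjusted p = 3.85e-06). OLFM3 had 57.4 and 61.7 CPM against 38.8 and 36.1 (0.67, adjusted p = 5.27e-09) and TLL1, a protease of the tolloid family, 22.3 and 27.3 against 10.7 and 9.94 (1.27, adjusted p = 3.75e-10).

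Outside the lists, the genes with the largest differences in each direction held members of no shared group. TLR7, an endosomal RNA receptor, had 11.9 and 15.8 CPM against 0.0802 and 0.42 (log2 fold change 5.68, SE 0.38, adjusted p = 1.83e-14), and CYSLTR2, a leukotriene receptor, 12.4 and 15.4 against 0.321 and 0.63 (4.82, adjusted p = 6.3e-16). RIPOR3 had 34.5 and 41.5 CPM against 1.2 and 1.4 (4.85, SE 0.19, adjusted p = 8.77e-22). RANBP3L, a nuclear export factor, had 12 and 25.7 CPM against no read, at least 83.9-fold higher (adjusted p = 0.00297). Its mouse medium libraries differed widely, and a fit of only the 4 libraries did not call it (adjusted p = 0.0607). On the lower side, PAQR5, a membrane progesterone receptor, had 0.128 and 0.343 CPM against 5.69 and 6.3 (-4.58, SE 0.45, adjusted p = 7.06e-11), and HEBP1, a haem-binding protein, 0.128 and 0.343 against 6.33 and 5.04 (-4.49, adjusted p = 7.85e-11). TM6SF1 had 0.384 and 0.914 CPM against 8.1 and 9.73 (-3.73, adjusted p = 2.29e-12) and was above control in the chick medium by 4.62 on the log2 scale. CORO1A, an actin regulator of leukocytes, had 4.74 and 2.28 CPM against 39.4 and 37 (-3.47, SE 0.16, adjusted p = 1.14e-19). TPPP3 and RAB36 completed the lower side, at 0.384 and 0.685 CPM against 5.21 and 5.74 (-3.31) and 0.641 and 0.571 against 5.05 and 5.46 (-3.10).

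The identity of the cells was checked against marker genes. IGR-N91 markers of sympathetic neuroblasts were present in all 4 libraries, except CHGA, which had no count in any library. Their summed levels were 4529 and 4357 CPM against 5407 and 5740.5. MYCN, whose values are given above, made up most of these sums, and TH had only 9 counts in each E15.5-mSGcm library. Markers of glia summed to 2.56 and 3.31 CPM against 2.56 and 2.59, with SOX10 at 0, and those of macrophages to 1.79 and 0.798 against 0.24 and 0.559, with TYROBP and AIF1 at 0. Endothelial markers summed to 3.07 and 4.79 CPM against 1.04 and 0.769, with CDH5 at 0. The difference there was carried by ERG, an ETS factor, at 2.05 and 4.34 CPM against no read, at least 14.2-fold higher (adjusted p = 1.57e-08). Fibroblast markers summed to 476 and 486 CPM against 447 and 435, with POSTN and FAP at 0. Of 7 tested, 5 were called higher and 1 lower (3 higher without E15.5-mSGcm replicate 1 or E8-cSGcm replicate 1, with the median going from 1.27 to 0.69 without the latter), among them the receptor PDGFRA, at 8.58 and 11.1 CPM against 1.28 and 1.12 (log2 fold change 3.03, adjusted p = 1.4e-11), and the proteoglycan DCN, at 13.7 and 13.5 against 1.92 and 2.52 (2.60, adjusted p = 9.45e-13). The marker called lower was COL1A1, at 31.9 and 28.4 CPM against 156 and 135 (-2.27). Of the 5 fibroblast markers with at least 10 counts in every library, 3 were called higher and 1 lower (median 0.67). Reads of mouse or chick cells carried over with a medium were not separated from human reads here, and their part in the marker values was not tested.

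**Figure D3:**
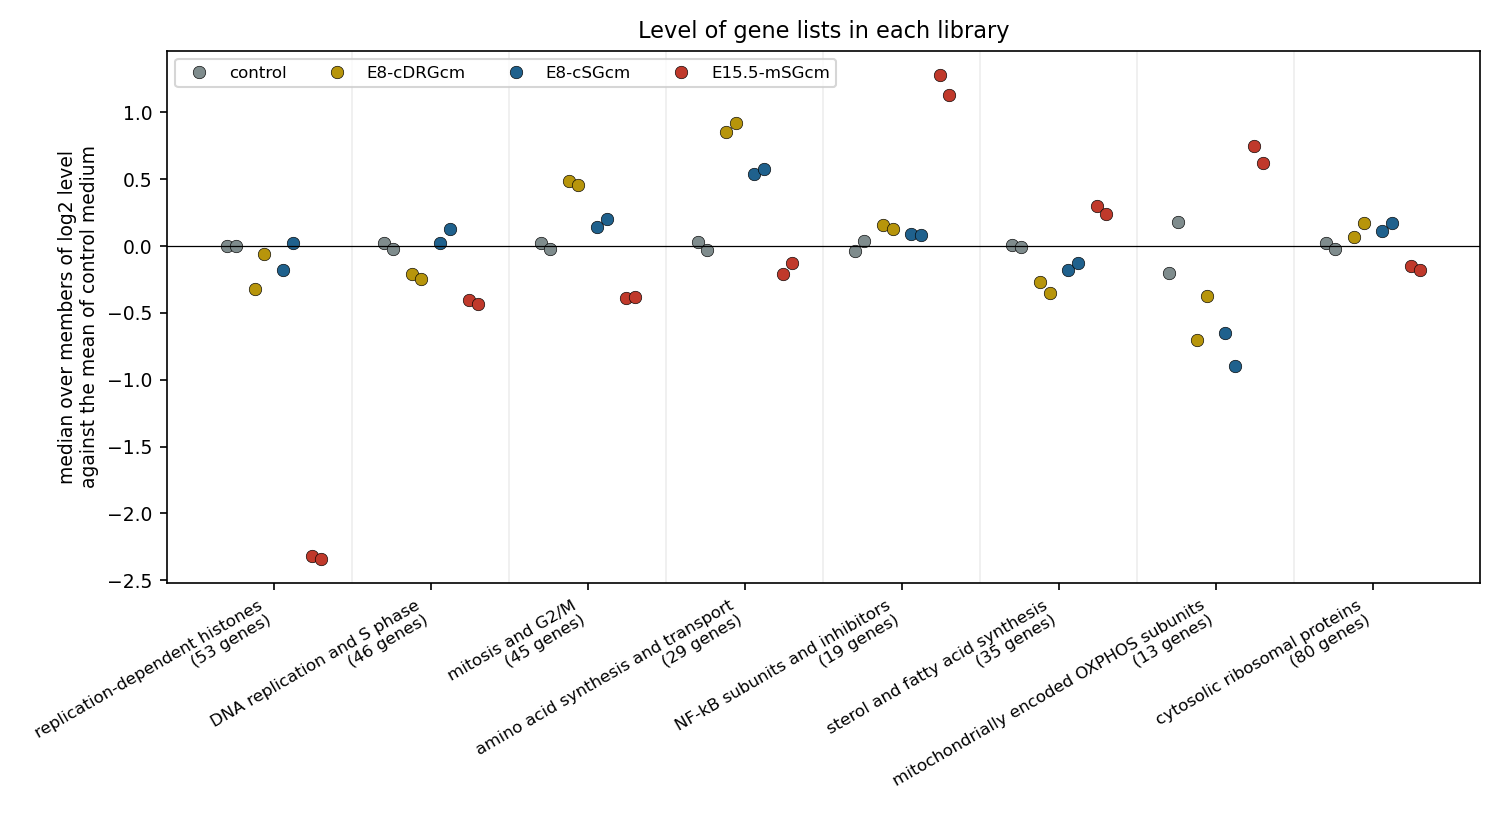
Median level of the members of selected lists in each of the 8 libraries, as log2 CPM (with 0.5 CPM added) minus the mean of the control libraries, coloured by medium. Both E15.5-mSGcm libraries lie at -2.32 and -2.34 for the replication-dependent histones and at 1.28 and 1.13 for NF-kB genes, where the E8-cSGcm libraries lie at -0.18 and 0.02 and at 0.09 and 0.08.

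Further lists are given by their counts, to be read against the 22.3% of all genes called. Of 19 immediate early genes 1 was higher and 3 lower, of 32 Wnt genes 5 and 5, of 22 chaperones of the endoplasmic reticulum 2 and 1, and of 39 genes of glycolysis and hypoxia 2 and 6. NRF2 genes had 1 higher and 4 lower of 21, heat shock genes 0 and 3 of 19, lysosomal genes 3 and 3 of 32, and the TXNIP family 1 and 2 of 8. The MYC network had 0 higher and 2 lower of 10, the BCL2 family 2 and 0 of 15 (6 and 1 after the GC correction), neuronal cytoskeleton genes 2 and 7 of 34, and neurotransmitter receptors 3 and 7 of 30. Actin genes under SRF had 3 higher and 4 lower of 23, SNHG host genes 1 and 0 of 23, HOX genes 1 and 3 of 16, and sensory neuron markers 1 and 1 of 5.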

How the data were processed

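RNA-seq was done by the authors on aggregates of IGR-N91 in duplicate for each of 4 media. Stranded libraries were made from total RNA with a SMARTer Pico kit and sequenced in single reads. The deposited values are raw counts of reads per human gene, not normalised. The submitters' processing notes name bcl2fastq 2.17.1.14, cutadapt 1.9.1, TopHat2 2.1.0 and HTSeq 0.11.3. The notes and the study's methods name different human genome builds, so gene coordinates are given only for the promoters. Of 60676 gene identifiers, 41085 were matched to a symbol.

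Counts were scaled by TMM and tested with edgeR 4.0.16 (R 4.3.3) by the robust quasi-likelihood test, after filterByExpr by group, in 1 model of the 8 libraries without covariates. P-values were adjusted over 16680 genes by Benjamini-Hochberg. Bounds against groups without reads used a floor of 3 counts per library. Alternatives were DESeq2 1.42.0, RLE size factors, other filters on low counts, fits of 4 libraries or without 1 library, thinning to 7930765 counts, a replicate block, a correction for GC content and length by splines with 5 degrees of freedom, and no fold criterion. The scripts were tested on simulated data.

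Lists were described where at least 4 members were called at 1.5 times the share over all genes, or where the study is about them. Genes were named as the 10 largest differences in each direction among called protein-coding genes whose media did not overlap, with a mean of at least 5 CPM in the higher medium, up to 6 called members of each list by lowest p, tested defining members, the restricted sets and the cell type markers. Members, lists and defining members were chosen with earlier results of these data known. Promoters came from RefSeq (GRCh38.p14). Some items are not reported here.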

Additional observations from a re-analysis of the deposited data

How the results depend on the processing

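The counts of 1704 genes higher and 2023 lower moved beyond 1.5 times only without the fold criterion, to 3979 and 4325. Over the other settings they ran from 1287 (at least 10 counts in every library) to 1809 (GC content and length) higher and from 1572 to 2327 (1 count in total) lower. DESeq2 called 1304 and 1584, of which 1272 and 1570 were shared. Leaving out 1 library gave 1390 to 1796 higher and 1842 to 2044 lower. With the replicate number as a block, 1700 and 2023 were called, 1690 and 2006 of them shared, and no call of a named gene changed. The numbers do not pair the libraries, since deviations of same-numbered libraries correlated at -0.017 between these media and between -0.0437 and 0.042 over all pairs of groups. Of 229 named genes called, 196 kept the call under every alternative that tested them and 33 lost it under at least 1. With the GC correction, with and without the replicate block, the median of the Notch list turned to 0.05 and that of the neuroblast markers to 0.06. Beside the list counts given above, leaving out 1 library moved only counts of 0 to 2 genes by over 1.5 times, such as the Notch genes called higher, from 2 to 1 without E15.5-mSGcm replicate 2. These causes were not tested. Depth limits the genes with few reads, as 3 counts correspond to 0.384 CPM in the shallowest library.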
